A study of Homo sapiens with 6 samples.

Results

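The clustered replication-dependent histone genes encode the H1, H2A, H2B, H3 and H4 proteins that package newly copied DNA. They were chosen by symbol, as the protein-coding genes of GENCODE release 44 named H1-1 to H1-6 or named H2AC, H2BC, H3C or H4C followed by a number. This gave 64 genes, of which 61 were among the 58884 genes measured (H2AC19, H3C2 and H3C3 were not matched). The 64 were 6 H1, 16 H2A, 16 H2B, 13 H3 and 13 H4 genes. Expression was measured by RNA-seq in DLD1 parental cells and in p85β KR-AA cells, with 3 libraries of each. DLD1 is an epithelial colorectal cancer cell line with a helical domain mutation in PIK3CA. In the p85β KR-AA cells, the changes K477A and R478A in a nuclear localization sequence were knocked into PIK3R2, the gene for the PI3K subunit p85β. The comparison asks which genes differ in expression when this sequence is mutated.

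Replication-dependent histone mRNAs are made mainly in S phase, under the coactivator NPAT. Unlike other mRNAs they normally carry no poly(A) tail, and end instead just after a conserved stem-loop that is bound by SLBP. Some of these genes also give longer transcripts that read past the stem-loop and are polyadenylated. The libraries were made from total RNA with a TruSeq RNA kit. Whether poly(A) RNA was selected is not stated in the sources used here, so a level below is that of the transcripts these libraries captured.

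The study used 2 knock-in clones, and the labels do not say which clone gave which library. The titles and genotypes of all 3 p85β KR-AA libraries read K477A and R478A, whereas the source names of replicates 2 and 3 read R479A and R480A in place of R478A. Nothing states that replicates were separate cultures, so p-values measure the spread between these libraries, which may be technical. PIK3R2 had 524, 169 and 313 estimated counts in parental replicates 1, 2 and 3, and 503, 476 and 125 in the p85β KR-AA replicates. The groups overlapped (log2 fold change -0.93, adjusted p = 0.0558 by edgeR's quasi-likelihood test), and gene counts cannot show a point mutation. Totals were 20301932 to 20873475 counts in parental and 20301396 to 26712816 in p85β KR-AA libraries. A level of 3 counts was worth 0.185 to 0.218 CPM (a count relative to library size, scaled by TMM) in parental libraries and 0.0818 to 0.109 CPM in p85β KR-AA libraries, which covers counting error only. The epithelial marker EPCAM had 3734, 4982 and 5311 counts in parental and 6775, 5321 and 3999 in p85β KR-AA libraries. On the CPM scale it was lower, at 313 against 172, with no overlap (log2 fold change -0.86, adjusted p = 2.66e-04 by edgeR). The mesenchymal genes VIM and FN1 had at most 14 and 74 counts in parental libraries and at least 48628 and 132172 in p85β KR-AA libraries. The mesenchymal genes COL1A2 and THY1 had at most 1 count in any library. Of 7 epithelial markers 6 were tested, with 1 higher (CDH1, log2 fold change 1.82) and 4 lower. These 4 were KRT8 (-3.07), KRT18 (-2.86), CDX2 (-1.98) and VIL1 (-1.66). Of 5 mesenchymal markers 3 were tested, with 2 higher. The part of these marker changes in the results for histone genes was not tested. In bulk libraries, fewer cells in S phase and less histone mRNA per cell cannot be told apart.

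The stem-loop is shown first because it defines these mRNAs and because the levels differed by where each gene model ends relative to it. A 16-base stem-loop was found within 200 bases after the coding sequence in 61 of the 64 genes on the GRCh37 genome, 26 to 71 bases after it (no match in H3C6, H2BC10 and H4C13). Capitals mark the 6-base arms of the stem, which were exact complements in 59 of the 61. The forms share most of their bases, and a search by sequence finds only what its pattern allows. The likeness of the forms and the match of their arms are therefore no independent measure of conservation. H3C6, H2BC10 and H4C13 may carry a form outside the pattern.
Form in 38 genes, of types H1, H2A, H2B and H3: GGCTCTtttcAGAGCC
Form in 8 genes, all H4: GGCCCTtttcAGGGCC
Form in 8 genes, of types H1, H2A, H2B and H3: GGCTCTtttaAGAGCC
Form in 4 genes, all H4: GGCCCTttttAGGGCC
Form in H2AC20: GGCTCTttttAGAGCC
Form in H2AC11: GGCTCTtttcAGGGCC
Form in H2AC15: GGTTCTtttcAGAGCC
Every H4 gene with a match thus had the 5′ arm GGCCCT, and no gene of another type did. The coding sequence lay in a single exon in all 64 genes. Translated, the 64 coding sequences gave 35 different proteins. All but 1 of the 13 H4 genes encoded the same protein (12 genes), and the 13 H3 genes encoded 2 proteins. Reads from such near-identical genes can be split between them by the authors' estimation, so values of single H3 and H4 genes are uncertain. H3C14 and H3C15 had identical counts in every library, which is 1 set of shared reads.

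Most of these genes were at or near the limit of detection. No count was recorded for 5 of the 61 in any library (H1-1, H2AC1, H2BC1, H2BC3 and H4C7), and 32 had fewer than 10 counts in every library, these 5 included. By library totals, all 61 together took 76.9, 91.9 and 83.0 CPM in parental replicates 1, 2 and 3, against 134, 129 and 131 in the mutant replicates. TMM scaling sets the typical gene near no change, and with it their sum was 106, 136 and 107 CPM in parental and 97.7, 91.3 and 96.8 CPM in p85β KR-AA libraries. The direction of the sum thus depended on the scaling, with a log2 ratio of p85β KR-AA to parental of -0.29 under TMM and 0.64 by totals. Scaling by totals moved the median gene by 0.92 on the log2 scale, and among all called genes the share that was higher was 61.9% under TMM and 87.9% by totals. All changes below are under TMM unless stated.

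The 7 genes with the most counts (H2BC12, H1-2, H2AC25, H2AC6, H2BC5, H4C14 and H2BC21) took 76.4% to 83.9% of the histone gene counts in each library. Levels were compared between genes as TMM-scaled CPM per kilobase of the deposited gene length. In parental cells H2BC12, for an H2B protein, was first at 55.1 ± 2.68 CPM per kilobase (SD, n = 3 here and below), followed by the linker histone gene H1-2 at 42.2 ± 5.28 and the H2A gene H2AC25 at 27.7 ± 2.87. H2BC5 at 11.2 ± 0.69 and H4C12 at 10.1 ± 4.44 came next and did not differ beyond their spread. The first 4 places were the same in p85β KR-AA cells, at 54.6 ± 1.58 for H2BC12, 22.9 ± 4.04 for H1-2, 13.3 ± 0.38 for H2AC25 and 11.9 ± 1.37 for H2BC5. There H2AC25 and H2BC5 did not differ beyond the spread of H2BC5. The plot of levels by library shows the tested genes by type.

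**Figure D1:**
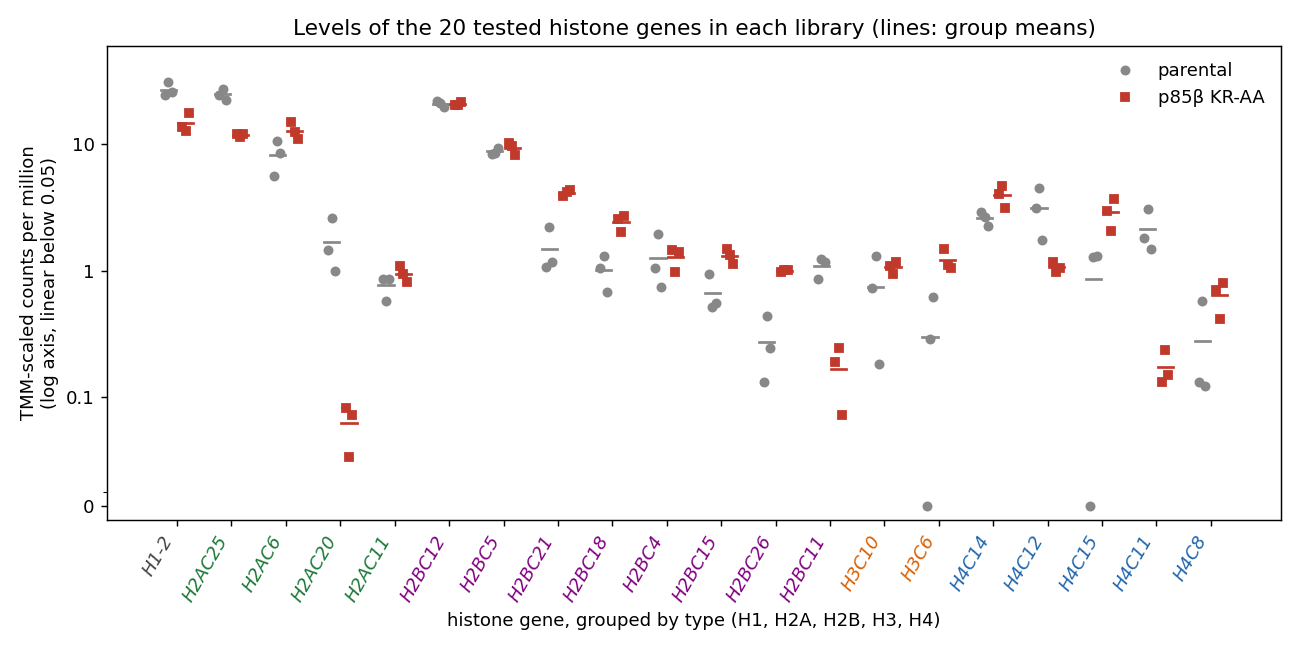
TMM-scaled CPM of the 20 tested histone genes (log axis, linear below 0.05) in each parental (grey circles, n = 3) and p85β KR-AA (red squares, n = 3) library, with a line at each group mean. H2AC20, H2BC11 and H4C11 were lower in every p85β KR-AA library than in any parental library, while H2BC12 lay close to 21 CPM in both groups.

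Genes were tested with edgeR's quasi-likelihood test and called where the fold change reached 3 with a Benjamini-Hochberg adjusted p under 0.01, the thresholds of the study. A filter on low counts left 20 of the 61 genes. Of these, 2 were called higher in p85β KR-AA cells (H2BC26 and H3C6) and 3 lower (H2AC20, H4C11 and H2BC11), or 10% and 15% of those tested. Over all 16059 genes tested, 46.2% were called, 28.6% higher and 17.6% lower. The median log2 fold change was 0.42 for the 20 genes and 0.32 for all tested genes. All 5 calls were of genes that passed the filter in only 1 of the groups, in which they had to be high. Of the 10 genes that reached the count minimum in both groups, 0 were called by edgeR, while 4 were higher and 3 lower at an unadjusted p under 0.05, and DESeq2 called 0 higher and 1 lower (H4C12). The edgeR p of H4C8, 0.0515, became only 0.0623 when adjusted, so most tested genes had an unadjusted p about that low. Counts at this p, here and below, are thus not read as a result about histone genes. Over all 16059 genes DESeq2 called 4202 higher and 3094 lower. Groups did not overlap for 8 of the 20 genes with p85β KR-AA above and for 6 with it below, compared with 47.0% and 36.5% of all tested genes.

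**Figure D2:**
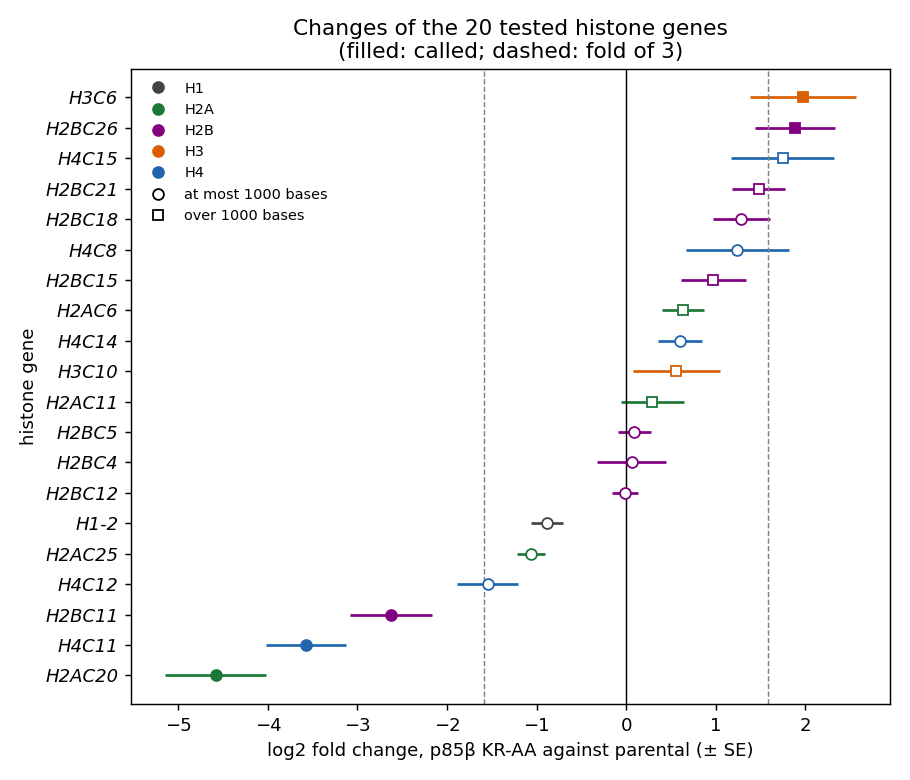
log2 fold change (p85β KR-AA against parental, 3 libraries each) of the 20 tested histone genes with bars of ± 1 SE, colored by histone type, filled where called, and with dashed lines at a fold of 3. Squares (over 1000 bases) all lie above 0, from 0.29 to 1.97, and all called genes below 0 are circles (at most 1000 bases).

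H1 genes encode the linker histones that bind where DNA enters and leaves the nucleosome. H1-2 (ENSG00000187837, chromosome 6 from 26055968 to 26056698, minus strand, GRCh37) was the only one of the 6 that could be tested. It had 369, 425 and 420 counts in parental libraries and 499, 369 and 485 in p85β KR-AA libraries, or 27.1 ± 3.39 and 14.7 ± 2.59 CPM. The groups did not overlap on the CPM scale. Its log2 fold change was -0.88 (SE 0.18, adjusted p = 5.19e-04), under a fold of 3, and 0.045 when libraries were scaled by totals. H1-4 had 7, 29 and 10 counts in parental and 14, 5 and 7 in p85β KR-AA libraries. H1-5 had 5, 8 and 6 against 1, 0 and 0. Both were too low to be tested, and H1-1, H1-3 and H1-6 had at most 3 counts in any library. No H1 gene was called by edgeR or DESeq2, and H1-2 alone had an unadjusted p under 0.05.

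Of the 15 H2A genes measured 4 were tested, and 1 was called lower, beside 17.6% of all tested genes. Single calls among so few genes, here and below, are not read as a result about a type. H2AC20 (ENSG00000184260, chromosome 1 from 149858468 to 149858961, plus strand) had 22.2, 36.2 and 16.1 counts in parental libraries and 3.01, 1 and 2 in p85β KR-AA libraries. No p85β KR-AA library came near the lowest parental one. The change was the largest in size among the tested histone genes, at -4.58 (SE 0.56, adjusted p = 6.77e-06). With so few counts in the mutant cells, the parental level was 25.5 times the mutant level with a 95% counting interval of 11.2 to 71.6. H2AC25 (ENSG00000181218, chromosome 1 from 228622478 to 228645574, minus strand) had 367, 379 and 365 counts in parental and 443, 330 and 331 in p85β KR-AA libraries. On the CPM scale this was 24.8 ± 2.57 against 11.9 ± 0.34, with no overlap and a log2 fold change of -1.06 (SE 0.16, adjusted p = 4.25e-05), short of a fold of 3. H2AC6 had 85, 145 and 138 counts against 548, 357 and 301, and its log2 fold change was 0.64 (SE 0.23, adjusted p = 0.0232). H2AC11, with 13, 8 and 14 counts against 40, 27 and 22.5, overlapped between the groups and gave 0.29 (SE 0.35, adjusted p = 0.451). Thus the 4 tested H2A genes did not share a direction. H2AC8 was listed at 0 in the parental libraries and had 5, 2 and 5 counts in the p85β KR-AA libraries.

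H2B was the type with the most tested genes, 8 of 16, with 1 called in each direction, beside 28.6% higher and 17.6% lower of all tested genes. H2BC26 (ENSG00000196890, chromosome 1 from 228645804 to 228650805, plus strand) had 2, 6 and 4 counts in parental and 36, 29 and 28 in p85β KR-AA libraries. Every p85β KR-AA library was above every parental library. It rose with a log2 fold change of 1.88 (SE 0.45, adjusted p = 0.0017). The call was lost without parental replicate 1 (1.55), without parental replicate 3 (1.79) and with DESeq2 (1.78). H2BC11 (ENSG00000124635, chromosome 6 from 27093676 to 27100574, minus strand) went the other way, with 13, 17.1 and 19 counts against 7, 7 and 2. It fell by 2.63 on the log2 scale (SE 0.46, adjusted p = 1.57e-04). H2BC12 (ENSG00000197903, chromosome 6 from 27114140 to 27114634, minus strand) had 329, 292 and 322 counts against 754, 585 and 590. These are 21.0 ± 1.02 and 20.8 ± 0.60 CPM, which overlapped, with a log2 fold change of -0.012 (SE 0.15, adjusted p = 0.941). By totals its fold change was 0.91. H2BC5, with 127, 118 and 153 counts against 378, 278 and 225, also overlapped between groups and gave 0.091 (SE 0.18, adjusted p = 0.655). H2BC18 had 16, 18 and 11 counts against 95, 58.7 and 75, with no overlap and a log2 fold change of 1.28 (SE 0.32, adjusted p = 0.00224). H2BC21, named here after its values were seen, had 16.3, 30.8 and 19 counts against 143, 120 and 119 and a log2 fold change of 1.48 (SE 0.30, adjusted p = 5.05e-04). Both H2BC18 and H2BC21 missed the fold of 3. The other 2 tested, H2BC4 and H2BC15, had log2 fold changes of 0.061 and 0.97.

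Of the 11 H3 genes measured only H3C6 and H3C10 passed the filter, and H3C6 was called higher, beside 28.6% of all tested genes. H3C6 (ENSG00000274750, chromosome 6 from 26224427 to 26227701, plus strand) had 0, 4 and 10 counts in parental libraries and 55, 32 and 29 in p85β KR-AA libraries. It rose with a log2 fold change of 1.97 (SE 0.59, adjusted p = 0.0077). Of the 6 fits with a library left out the call was kept in 1, without parental replicate 3 (3.06), and it was lost in the other 5 (1.39 to 2.07) and with DESeq2 (1.90, adjusted p = 0.0103). H3C10 had 11, 18 and 3 counts against 40, 27 and 32, overlapped, and gave 0.56 (SE 0.49, adjusted p = 0.302). H3C12 had 1, 10.9 and 6.71 counts against 4.5, 3 and 2.58, and H3C13 had 3, 7 and 5 against 4.16, 0 and 2. Neither was tested. When genes with the same protein were summed before the fit, the set with H3C6 had a log2 fold change of 0.46 (adjusted p = 0.219), and the set of H3C13, H3C14 and H3C15 had -1.08 (adjusted p = 0.0333).

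H4 genes were tested in 5 of 13 cases and 1 was called lower, beside 17.6% of all tested genes. H4C11 (ENSG00000197238, chromosome 6 from 27791870 to 27792258, plus strand) had 27.3, 42.6 and 24.3 counts in parental libraries and 4.88, 6.76 and 4.11 in p85β KR-AA libraries. It fell by 3.57 on the log2 scale (SE 0.45, adjusted p = 8.32e-06) with no overlap between the groups. H4C12, with 47.7, 62.4 and 28.7 counts against 43.1, 28.2 and 28.9, was also lower on the CPM scale in all p85β KR-AA libraries. Its log2 fold change of -1.55 (SE 0.34, adjusted p = 0.001) was just short of a fold of 3, and it was called with DESeq2 (-1.69), without parental replicate 3 (-1.88) and without p85β KR-AA replicate 1 (-1.61). H4C14 had 44, 36.4 and 36.9 counts against 149, 134 and 86.3 and gave 0.60 (SE 0.25, adjusted p = 0.0381). H4C15, named after its values were seen, had 0, 17.6 and 21.1 counts against 109, 59.9 and 102 and gave 1.75 (SE 0.58, adjusted p = 0.0135). H4C8 gave 1.24 (SE 0.58, adjusted p = 0.0623). Summed over the 12 H4 genes with the same protein, the log2 fold change was -0.15 (SE 0.23, adjusted p = 0.558), while the fold changes of the single genes went in both directions. In every library the estimated counts of H4C11 and H4C12 added up to a whole number, such as 27.32 and 47.68 in parental replicate 1. The same held for H4C14 and H4C15, such as 148.52 and 109.48 in p85β KR-AA replicate 1. Each pair thus appears to share reads that the estimation divided, and the fold changes of its 2 genes depend on that division. Whether the division was right cannot be checked in the values.

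Summed by type under TMM, H1 went from 28.8 CPM in parental to 15 CPM in p85β KR-AA cells and H2A from 37.2 to 26.3 CPM. H2B went from 36.2 to 41.1 CPM, H3 from 3.44 to 3.23 CPM and H4 from 10.7 to 9.62 CPM. For H3 and H4 the groups overlapped, and the parental means were raised by parental replicate 2, at 5.58 and 14.6 CPM. In parental replicates 1 and 3, H3 was at most 2.72 CPM, below the lowest p85β KR-AA library at 3.06 CPM. H4 was at 9.43 and 7.96 CPM there, against 9.30 to 9.95 CPM in p85β KR-AA libraries. The H3 and H4 sums thus show no clear direction. No p is given for these sums, and by totals the log2 ratios were -0.0066 for H1, 0.43 for H2A, 1.11 for H2B, 0.86 for H3 and 0.79 for H4. The H1 sum was mostly H1-2, whose log2 fold change was 1.16 with offsets for length and GC content.

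The genes lie in 6 groups separated by more than 500 kb. Calls in each group stand beside 28.6% higher and 17.6% lower of all tested genes. The largest, 30 genes on chromosome 6 between 25.7 and 26.3 Mb, summed to 49.0 CPM in parental and 41.4 CPM in p85β KR-AA cells, with 6 genes tested and H3C6 the only call. The 5 genes at 27.1 Mb summed to 23.5 and 22.1 CPM, with 3 tested and H2BC11 lower. The 16 genes between 27.8 and 27.9 Mb summed to 9.18 and 4.22 CPM, a log2 ratio of -1.12 (by totals -0.18), with 4 tested and H4C11 lower. On chromosome 1, the 10 genes between 149.8 and 149.9 Mb summed to 9.39 and 14.3 CPM, a log2 ratio of 0.61 (by totals 1.55). This group held 4 of the 8 genes with p85β KR-AA above and no overlap (H2BC18, H2BC21, H4C14 and H4C15), next to H2AC20, the gene that fell most. The 4 genes were among 5 tested in this group, compared with 47.0% of all tested genes. H4C14 and H4C15 appear to share reads and are not separate observations, and H4C15 passed the filter only in the p85β KR-AA group. The pair H2AC25 and H2BC26 near 228.6 Mb summed to 25.1 and 12.9 CPM, nearly all of it H2AC25. H4C16, alone on chromosome 12, had 3, 3 and 2 counts against 10, 11.0 and 12 and was not tested.

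H2A and H2B genes often lie back to back and share 1 promoter region. There were 10 such pairs, with 169 to 250 bases between their starts. Both genes were tested in 4 pairs, and in 3 of these the fold changes had opposite signs. H2BC21 and H2AC20 had log2 fold changes of 1.48 and -4.58, H2BC26 and H2AC25 had 1.88 and -1.06, and H2AC11 and H2BC11 had 0.29 and -2.63. The value of H2AC11 was within its SE of 0 (SE 0.35, adjusted p = 0.451 by edgeR), so the sign of that pair is uncertain. In the other pair, H2BC4 had 0.061 and H2AC6 had 0.64. In each of the 3 pairs with opposite signs the gene with the positive value has a deposited length over 2000 bases (2194, 2364 and 2250) and the other under 1000 (390, 895 and 950). Each of these 3 pairs holds a gene that passed the filter through only 1 group. The part of length in these signs was not tested. By totals H2AC25 was at -0.13 and the signs within these 3 pairs stayed opposite, whereas with offsets for length and GC content H2AC25 (0.58) had the sign of H2BC26 (1.38).

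The stretch between H2BC21 and H2AC20 is shown because the fold changes of its 2 genes were furthest apart. The RefSeq promoter window of H2BC21 spans it, on GRCh38.p14, chr1:149886633-149886932, minus strand, 5′ to 3′. Capitals mark the octamer ATTTGCAT, the CCAAT box and the TATA box TATAAA or their reverse complements.
H2BC21 promoter: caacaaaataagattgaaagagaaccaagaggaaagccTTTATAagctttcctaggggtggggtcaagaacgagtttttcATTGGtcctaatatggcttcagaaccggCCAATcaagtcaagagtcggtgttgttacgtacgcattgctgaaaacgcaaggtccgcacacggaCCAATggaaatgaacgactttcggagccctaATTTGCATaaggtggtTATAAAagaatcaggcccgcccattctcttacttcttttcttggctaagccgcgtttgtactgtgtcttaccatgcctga
The octamer, read by OCT1 in H2B genes, and a TATA box stand on the side of H2BC21, and the other TATA box stands at the end toward H2AC20. RefSeq gave a promoter window of 300 bases for 59 of the 64 genes, and each motif was searched on both strands. ATTTGCAT was in 24 of the 59 (40.7%, compared with 1.80% of 27305 promoters), in 12 of 16 H2B, 11 of 15 H2A and 1 of 11 H3 genes and in no H1 or H4 gene. The H3 gene is H3C4, for which RefSeq gives 2 windows, and the one used is also the window of H2AC7. Windows of back-to-back genes can overlap, as those of H2BC21 and H2AC20 do, and the same motif is then counted for both genes. CCAAT was in 50 (84.7%, compared with 35.7%), which were all the H1, H2A, H2B and H3 windows and 2 of 11 H4 windows. TATAAA was in 39 (66.1%, compared with 12%).

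Levels differed between genes by where the annotated gene model ends. In 17 genes the model ran more than 200 bases past the coding sequence, and thus past the stem-loop where one was found. Of these 14 (82.4%) had a mean of at least 10 counts, and the median gene had 25.7 counts. Of the 44 measured genes whose model ended within 200 bases, 9 (20.5%) had a mean of at least 10 counts and the median gene had 1.92 counts. Per length the medians were 30.2 and 3.75 counts per kilobase. Levels overlapped between the classes, and among the short models H2BC12, H1-2 and H4C12 had more counts than the median of the long ones. These ends are those of GENCODE 44 and not of the annotation behind the counts. The deposited length was over 1000 bases in 7 of the 44 genes with short models (H2AC11 among them, at 2250), and it was 396 and 397 bases for H2AC1 and H4C8, whose models are long. Split by deposited length instead, a choice made after seeing the data, 10 of 14 genes over 1000 bases (71.4%) and 13 of 47 others (27.7%) had a mean of at least 10 counts, with medians per kilobase of 6.81 and 4.27 counts. The 17 genes with long models took 53.1% of the histone gene counts. After the filter, 14 of these 17 were tested, with 2 higher, 1 lower and a median log2 fold change of 0.81. Of the other 44, 6 were tested, with 0 higher, 2 lower and a median of -1.21 (edgeR). Over all tested genes 28.6% were higher and 17.6% lower. Each of these edgeR calls was of a gene that passed the filter in only 1 group. Of the 6, 1 had a deposited length over 1000 bases, and of all tested genes of at most 1000 bases 39.4% were lower. The part of length in this contrast was not tested. By DESeq2 the 6 genes with short models gave 0 higher and 3 lower, and at an unadjusted p under 0.05 0 higher and 4 lower. Most of all tested genes had an unadjusted p about that low, and DESeq2 called 4202 of the 16059 higher and 3094 lower. Counts per gene hold no position along the transcript, so that whether reads came from before or after the stem-loop was not measured.

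Fold changes rose with gene length over all genes, and the histone genes were read beside genes of their own length. Of the 12 tested histone genes of at most 1000 bases, 0 were higher and 3 lower (edgeR), with a median log2 fold change of -0.45. At an unadjusted p under 0.05, 2 of these 12 were higher and 6 lower, and DESeq2 called 0 higher and 4 lower. Over all 1593 tested genes of this length, 10.5% were higher and 39.4% lower, with a median of -1.12. Of the 8 histone genes over 1000 bases, 2 were higher and 0 lower (edgeR), with a median of 1.23. At an unadjusted p under 0.05, 6 of these 8 were higher and 0 lower, and DESeq2 called 0 in either direction. Most of all tested genes had an unadjusted p about that low, and DESeq2 called 4202 of the 16059 higher and 3094 lower. The 14466 tested genes over 1000 bases had 30.6% higher and 15.2% lower and a median of 0.49. With length and GC offsets per library, the median of the 20 genes was 1.28 and that of all tested genes 0.28, and the directions of H1-2 (1.16), H2AC25 (0.58), H4C12 (1.12) and H2BC12 (2.31) became positive while that of H2BC15 (-0.61) became negative. H2AC20 (-2.30, adjusted p = 0.00337) and H2BC11 (-1.73, adjusted p = 0.00465) were still called lower, whereas H4C11 (-0.95, adjusted p = 0.0703), H2BC26 (1.38) and H3C6 (1.33) were no longer called. The part of gene length in the change of any single histone gene was not tested.

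The replication-independent and variant histone genes lie outside these clusters, and most give polyadenylated mRNA. Of 12 such genes measured, 11 were tested, with 0 higher and 5 lower by edgeR, compared with 28.6% higher and 17.6% lower of all tested genes. The symbol H2BU1, also listed, was not matched to a gene. Under TMM all 11 fold changes were below 0, with a median of -1.40 on the log2 scale. H2AX, whose protein is phosphorylated at DNA breaks, had 8491, 7854 and 8776 counts in parental and 2552, 1900 and 2078 in p85β KR-AA libraries and fell by 2.99 (SE 0.13, adjusted p = 2.33e-09). The other 4 log2 fold changes were -2.94 for the linker variant H1-10, -2.38 for H2AJ, -1.76 for MACROH2A2 and -1.69 for the centromeric H3 gene CENPA. The CENPA call was lost without parental replicate 2 (-1.55) or p85β KR-AA replicate 3 (-1.58). Short of a fold of 3 were H2AZ2 (-1.40), MACROH2A1 (-1.30), H3-5 (-1.29), H3-3B (-0.63) and H2AZ1 (-0.58), each with an adjusted p from edgeR of at most 0.00558. H3-3A (-0.24) had an adjusted p of 0.109. By totals 2 genes of the list were called lower, and H2AZ1, H3-3A and H3-3B had positive fold changes.

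Among 22 genes for histone gene transcription and 3′ processing, all tested, 6 were higher and 5 lower (28.6% and 17.6% of all tested genes), with a median of 0.023. NPAT had 9, 8 and 6 counts in parental and 205, 186 and 93 in p85β KR-AA libraries and rose with a log2 fold change of 3.32 (SE 0.36, adjusted p = 2.21e-06). CASP8AP2, also named FLASH, of the 3′ processing machinery, rose by 2.63, while LSM10 of the U7 particle fell by 2.21 and MBLAC1, a nuclease for histone pre-mRNA, fell by 3.36. SLBP, which binds the stem-loops shown above, had 728, 812 and 1117 counts against 1917, 1527 and 1301. On the CPM scale its groups were at 58.8 ± 10.3 and 51.0 ± 3.10, with a log2 fold change of -0.21 (SE 0.15, adjusted p = 0.22), and 0.71 by totals. These genes did not move in a common direction. NPAT, at 6113 bases, and CASP8AP2, at 6151 bases, are long, while LSM10 has 860 bases. With offsets for length and GC content these changes were smaller, at 1.14 for NPAT, 0.45 for CASP8AP2, -0.055 for LSM10 and -0.82 for MBLAC1.

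Of 9 genes for histone mRNA decay 4 were higher and 0 lower by edgeR, with a median of 1.36, beside 28.6% higher and 17.6% lower of all tested genes and 30.6% higher of those over 1000 bases. UPF1, at -1.48 (adjusted p = 3.19e-06), was short of a fold of 3 (named after its values were seen). The uridylyltransferase gene TUT4 rose by 3.77 and the exonuclease gene XRN1 by 3.67, and they have 5853 and 10143 bases. Against the same shares, the 16 genes listed as histone chaperones had 2 higher, ATRX by 3.51 and NAP1L1 by 1.74. In the same list 3 were lower, among them ASF1B, which fell by 2.24, and CHAF1A of the CAF-1 complex, which fell by 1.80. Of 18 S phase genes 1 was higher, POLA1 by 2.61, and 6 were lower, with a median of -1.06, again beside 28.6% higher and 17.6% lower overall. CDT1, which licenses replication origins, fell by 2.69 and the helicase gene MCM5 by 2.63. Most calls of these lists in the lower direction depended on the scaling, with 2 of the S phase genes, 1 of the processing genes and 0 of the chaperones called lower by totals. With offsets for length and GC content the named changes were smaller. TUT4 was then at 1.73, XRN1 at 0.97, ATRX at 0.72, NAP1L1 at 0.026 and POLA1 at 0.70. Under the same offsets ASF1B was at -0.77, CHAF1A at -0.88, CDT1 at -0.99 and MCM5 at -1.83.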

How the data were processed

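RNA-seq of DLD1 parental and p85β KR-AA cells (3 libraries each) was analysed. Reads were paired-end, and the study names SeqPrep and Sickle for trimming. The submitters' processing notes name HISAT2 2.1.0, RSEM 1.3.1, DESeq2 1.24.0 and hg18, with no role given. The authors deposited estimated counts (expected counts, not normalized) per Ensembl gene, and a gene length column. All columns were used.

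Counts were rounded, filtered with filterByExpr (minimum count 10, minimum total 15), scaled with TMM and tested with edgeR 4.0.16 in R 4.3.3 (quasi-likelihood, Benjamini-Hochberg over 16059 genes, no covariate). Standard errors were derived from the fold change and the F statistic. Counting intervals are exact binomial intervals at 95%, for counting error only. Alternatives were DESeq2 1.42.0, scaling by totals, other filters and thresholds, a replicate block, length and GC offsets (splines with 5 degrees of freedom) and each library left out. The code was tested on simulated counts with known changes.

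Replicates of a group differed by more than sampling noise (chi-square per degree of freedom of 4.08 to 35.8). With the block, and without the filter, the prior degrees of freedom were infinite (otherwise 8.32), so p-values of single genes from those fits are not given. Replicate numbers did not pair libraries.

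Symbols, positions and coding sequences came from GENCODE 44 on GRCh37 by Ensembl identifier, since the deposited values have no coordinates. Promoters came from RefSeq. The histone genes, the gene lists and the tests were chosen with earlier results of these data known. Values are given for the 3 genes with the most counts per kilobase in each type, called genes (up to 5 each way), all tested variants, SLBP, NPAT, and up to 2 genes each way in the other lists. One gene of the lists is not reported here. Other genes are named as chosen later, as parts of a count, or as partners in a pair. Figures were drawn with matplotlib 3.10.9.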

Additional observations from a re-analysis of the deposited data

How the results depend on the processing

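Of all genes, 4597 were called higher and 2825 lower. Scaling by totals gave 7052 and 973, length and GC offsets 2830 and 1041, and at least 10 counts in every library 2898 higher, while a fold of 2 with an adjusted p under 0.05 gave 4289 lower. Of the histone genes, 2 were called higher and 3 lower. The number higher was 7 by totals, 0 with DESeq2, 1 with at least 10 counts in every library, 4 with offsets, 5 at a fold of 2, 1 with identical proteins summed (chosen after seeing the data, from GENCODE translations, in place of sums by RefSeq protein, which were not run), and 0 to 3 with a library left out (0 without parental replicate 1, 3 without parental replicate 2, 1 without any of the other 4). The number lower was 9 without a filter, 0 with at least 10 counts in every library, which removes genes low in 1 group, and 5 at a fold of 2.

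By type, calls of H1 genes lower went from 0 to 2 without a filter and were 0 to 1 with a library left out (1 without parental replicate 1). H2A went from 0 to 1 higher with offsets, and from 1 lower to 3 without a filter, 0 with at least 10 counts in every library and 2 at a fold of 2. H2B went from 1 higher to 4 by totals, 0 with DESeq2, 2 with offsets, 3 at a fold of 2 and 0 to 2 with a library left out (0 without parental replicate 1 or 3, 2 without parental replicate 2), and from 1 lower to 0 with at least 10 counts in every library. H3 went from 1 higher to 0 with DESeq2, at least 10 counts in every library, offsets or identical proteins summed, and 0 to 1 with a library left out, and from 0 lower to 1 without a filter. H4 went from 0 higher to 2 by totals, to 1 without a filter, with offsets or at a fold of 2, and 0 to 1 with a library left out (1 without parental replicate 2), and from 1 lower to 2 with DESeq2, without a filter or at a fold of 2, to 0 with at least 10 counts in every library, offsets or identical proteins summed, and 1 to 2 with a library left out (2 without parental replicate 3 or p85β KR-AA replicate 1).

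Same-numbered replicates had correlations of deviations of -0.14, 0.12 and -0.045, so the numbers are not taken as pairs. With the replicate block, H4 had 1 gene called higher in place of 0, also with robust estimation of the prior, which was added after seeing the data, and histone genes called were 3 higher and 3 lower.

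By totals, calls lower went from 5 to 2 for variant histones, 5 to 1 for transcription and processing, 3 to 0 for chaperones and 6 to 2 for S phase genes, and calls higher from 2 to 6 for chaperones and 1 to 2 for S phase genes. Decay genes had 0 to 1 lower with a library left out (1 without parental replicate 2). Summed log2 ratios by totals were 0.64 for all, -0.0066 for H1, 0.43 for H2A, 1.11 for H2B, 0.86 for H3 and 0.79 for H4, and by position 1.55 and -0.032 on chromosome 1, 1.96 for H4C16, and 0.69, 0.84 and -0.18 on chromosome 6.

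Signs of single genes turned by totals for H1-2 (0.045), H2BC12 (0.91), H2AZ1 (0.34), H3-3A (0.67), H3-3B (0.30) and SLBP (0.71), and with offsets for H1-2 (1.16), H2AC25 (0.58), H2BC12 (2.31), H4C12 (1.12), H2BC15 (-0.61), H2AZ1 (0.38), H3-3B (0.66) and SLBP (0.055). H2BC12, near 0, was at 0.033 without a filter, 0.18 with at least 10 counts in every library, and from -0.091 to 0.011 with a library left out (0.0066, 0.0077 and 0.011 without parental replicate 1, p85β KR-AA replicate 1 and 2). H2BC5 was at -0.026 with DESeq2. The cause of these shifts was not tested. H2AC20 and H2BC11 were called lower under each alternative that tested them, and H4C11 under each but offsets. This is no independent support, since the alternatives reuse the same libraries and these genes passed the filter only in the parental group, in which they had to be high. With at least 10 counts in every library none of them was tested. The filter on low counts removed 41 of the 61 genes, which could not be tested. The parts of depth, capture and expression in this were not tested.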
